A study of Mus musculus with 4 samples.

Results

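The p53 pathway was described through 31 genes, p53 itself (Trp53) and 30 of its regulators and target genes, taken from the deposited table by their symbols. All 31 were found among the 17921 genes of the table, and 30 of them had enough reads to be tested. Th17 cells, named for the interleukin 17 they secrete, were differentiated in vitro over 72 h, starting from naive CD4+ T cells of 2 mice without PRAK (PRAK KO) and 2 wild-type (WT) mice. Each mouse gave 1 RNA-seq library, called KO 1, KO 2, WT 1 and WT 2 after the mouse numbers in the labels. PRAK is the p38-regulated kinase encoded by Mapkapk5, and all 4 cultures had the same Th17 differentiation treatment. All cells of a culture were taken on day 3, with no sort named at the harvest, and the sources used here give neither the age or strain of the mice nor the part of the gene that was deleted.

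p53 is a transcription factor that is kept at a low level by the ubiquitin ligase MDM2 and its partner MDM4. DNA damage, oncogene signalling and other stresses release it, and it then switches on genes that stop the cell cycle, start apoptosis and assist DNA repair, together with genes such as Mdm2 that restrain it again. In T cells p53 limits proliferation and removes damaged cells, and PRAK has been reported to phosphorylate p53 in cells that carry an activated Ras oncogene. The title of the series asks about NRF2, redox balance and glycolysis in Th17 differentiation, and the same 4 libraries give the levels of p53 and its targets with and without PRAK.

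The p53 protein binds DNA through a pair of half-sites of 10 letters each, known as the p53 half-site, and some of the best-known sites lie in first introns or kilobases away from the start. The windows searched here hold only the 250 bases before and the 50 bases after an annotated start (RefSeq, GRCm38.p6), so a gene with no match may have a site elsewhere. A window was at hand for 23 of the 31 genes. At least 1 half-site, on either strand because the pattern reads the same on both, was found for 10 of these 23 genes (43.5%), against 2582 of 27025 genes in the whole promoter table (9.55%). A pair of half-sites with up to 13 bases between them was found for 1 member, Cdkn1a, against 20 of the 27025 genes (0.074%). The members were listed because they are p53 targets, so these shares describe the list. The stretches with a half-site are shown for the genes in which it lies before the first annotated start, each on the strand of its gene and with the half-sites in capitals, since the levels of these genes are described below.
Cdkn1a (chr17:29090881-29090940, + strand): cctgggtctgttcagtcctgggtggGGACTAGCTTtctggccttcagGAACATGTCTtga
Ccng1 (chr11:40755437-40755496, - strand): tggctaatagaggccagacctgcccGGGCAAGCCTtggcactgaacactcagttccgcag
Bax (chr7:45467065-45467124, - strand): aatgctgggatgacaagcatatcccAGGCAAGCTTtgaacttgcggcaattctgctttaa
Ei24 (chr9:36797335-36797369, - strand): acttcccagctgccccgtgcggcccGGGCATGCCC
Mdm2 (chr10:117710910-117710969, - strand): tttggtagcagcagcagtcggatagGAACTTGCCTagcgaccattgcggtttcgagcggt
Ppm1d (chr11:85311097-85311156, + strand): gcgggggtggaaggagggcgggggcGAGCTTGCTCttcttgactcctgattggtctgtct
Trp53 (chr11:69580259-69580318, + strand): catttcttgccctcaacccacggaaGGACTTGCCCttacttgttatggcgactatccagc
In Cdkn1a the half-sites begin 73 and 51 bases before the start and are 12 bases apart. In Ei24 the half-site ends at the last base before the start. Aen, Gtse1 and Polk also held a half-site in a window. Of the 15 members that were higher in KO cells, described next, 12 had a window and 5 of those held a half-site, and of the 14 that did not pass the test 10 had a window and 5 held one.

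The libraries held between 19418012 and 20125124 expected counts. Across genes, Pearson's r on the log2 scale was 0.974 between the KO libraries and 0.992 between the WT libraries. Mapkapk5 stood at 20.04 and 21.6 CPM in KO cells, against 35.6 and 38.4 CPM in WT cells (CPM, the count divided by the TMM-scaled library size, used for single genes throughout). It was lower in KO (log2 fold change -0.83, adjusted p = 0.0194) in the direction of the labels, and missed the threshold without WT 1 (adjusted p = 0.0918) or WT 2 (0.169). A count over the whole gene does not show how much intact transcript was left. Of the markers of T cells, Cd3e and Cd4 stood between 165 and 939.5 CPM in all 4 libraries. In edgeR 1 of 8 T and Th17 markers was higher in KO and 1 was lower, against 5.14% and 8.23% of all genes tested. Ccr6 was higher (log2 fold change 1.12, adjusted p = 0.00963) and Il23r was lower (-1.77, adjusted p = 0.0390). With limma on log2(TPM + 1) 0 of the 8 were lower. Marker genes of myeloid cells were higher in KO for 7 of 12, against 5.14% of all genes tested. Adgre1, 1 of these 7, entered the test only through its KO counts (12 and 19, against 1 and 2 in WT). The summed level of the 12 was 164 and 318 CPM in KO 1 and KO 2, against 69.2 and 102.8 CPM in WT 1 and WT 2. The sums for CD8 T and NK cell markers were 395 and 321 CPM in KO, against 70.6 and 173 CPM in WT, and those for B cell markers were 105.0 and 88.0 CPM in KO, against 26.8 and 71.3 CPM in WT. For these 2 lists 1 of 8 and 1 of 6 tested markers were higher, while 0 of 3 erythroid markers passed in edgeR, 0 of them had an unadjusted p under 0.05, 0 passed with DESeq2, and all 6 lay at or under 3.71 CPM. No myeloid or B cell marker was at 0 in any library, and the NK cell marker Ncr1 was at 0 in both WT libraries. In bulk RNA a change in the number of cells of a type and a change in RNA per cell cannot be told apart, and the part of these other cells in the p53 genes was not tested.

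Of the 30 p53 pathway genes tested 15 were higher in KO cells, 1 was lower and 14 did not pass the test (edgeR quasi-likelihood test, Benjamini-Hochberg adjusted p under 0.05). Of all 12680 genes tested 5.14% were higher and 8.23% were lower. A called rise of at least 2-fold was found for 13 of the 30, against 2.92% of all genes. Eda2r entered the test only through its KO counts, so a difference was built into its entry, and without it 14 of 29 members were higher, 12 of them by at least 2-fold. The median log2 fold change of the 30 genes was 0.81 (0.70 without Eda2r), against 0.02 for all genes tested. The estimate was above 0 for 29 of the 30 genes, but for 22 when KO 2 was left out, where Btg2, Cdkn1a, Fas, Mdm4, Perp, Polk and Xpc joined Ddb2 below 0. Rrm2b lay below 0 without KO 1 or WT 1, and Xpc also without WT 1 and with the mouse numbers as a block. In 21 of the 30 both KO libraries lay above both WT libraries (20 of 29 without Eda2r), against 31.7% of all genes. In 1 both lay below, against 31.4% of all genes. Scaling by library size alone gave 17 higher members and 1 lower, while it turned the split over all genes to 918 higher and 864 lower, in place of 652 and 1043, and moved the median of all genes to 0.12. Leaving out KO 1 gave 26 higher members and leaving out KO 2 gave 18, where 17.3% and 22.2% of all genes were higher. Leaving out WT 1 gave 9 and leaving out WT 2 gave 10, where 1.59% and 1.85% of all genes were higher.

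**Figure D1:**
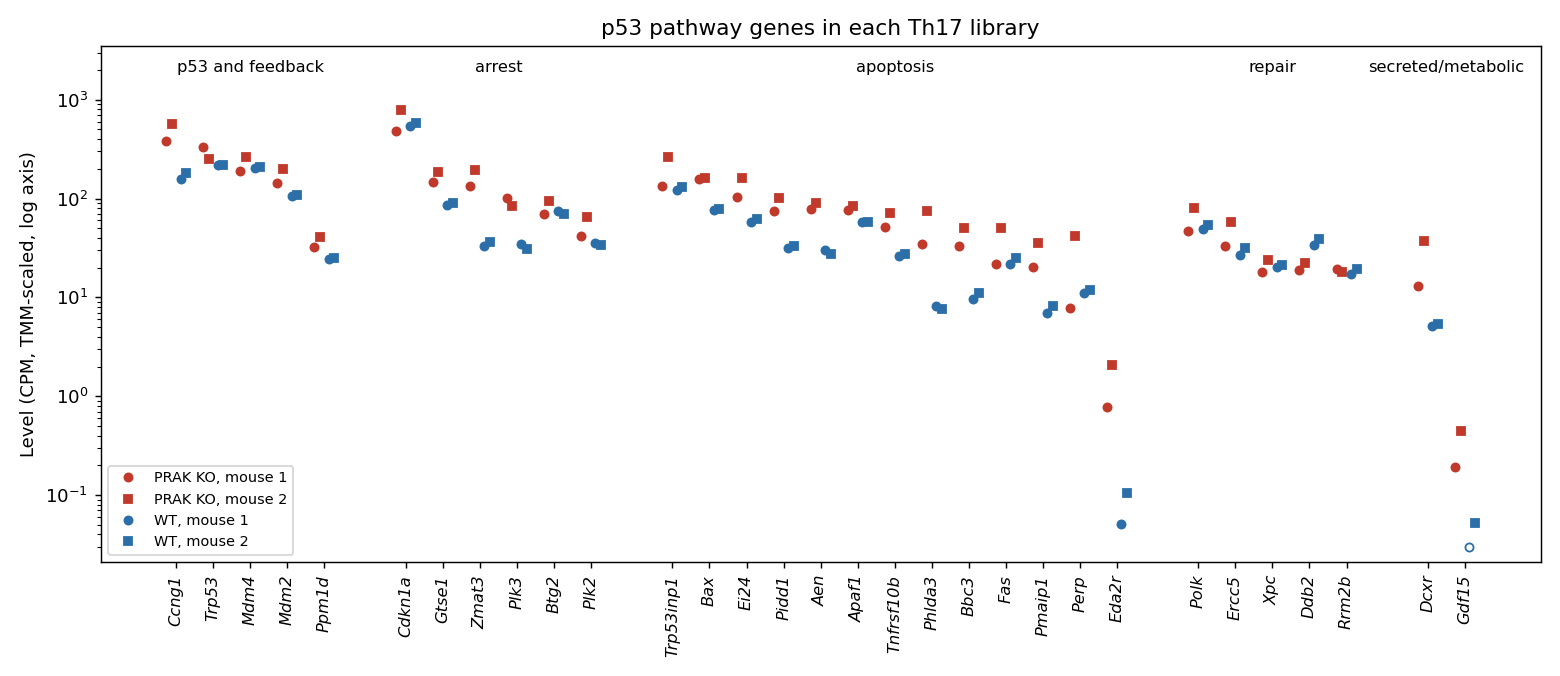
Level of each p53 pathway gene (CPM with TMM scaling, log axis) in the 2 PRAK KO libraries (red) and the 2 WT libraries (blue), with circles for mouse 1 and squares for mouse 2, ordered by role and by KO mean. The open circle is Gdf15 at 0 in WT 1; Bbc3, Phlda3 and Zmat3 show red points well above blue ones, while those of Cdkn1a, Fas and Perp lie on both sides of the blue ones.

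The genes of p53 and its feedback circuit showed 1 rise among 5. Trp53 (chromosome 11, 69580348 to 69591873, GRCm38.p6, as all coordinates here) stood at 329 and 253 CPM in KO 1 and KO 2, against 216 and 218 CPM in WT 1 and WT 2. Both KO values lay above both WT values, but the log2 fold change of 0.42 ± 0.16 (SE) did not pass (adjusted p = 0.143). It was 0.22 when KO 1 was left out and 0.59 when KO 2 was left out, so its size rested on which KO mouse was kept. Mdm2, the ligase gene (chromosome 10, 117688875 to 117710758), stood at 145 and 200.4 CPM in KO, against 105.0 and 108 CPM in WT. Here too the groups did not overlap, and the log2 fold change was 0.70 ± 0.18 with an adjusted p of 0.0587. Over the 11 alternative settings the adjusted p of Mdm2 lay between 2.23e-05 and 0.244 and was past the threshold in 6, so its call depended on the setting.

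Ccng1, the gene of cyclin G1, which acts with a phosphatase on MDM2 (chromosome 11, 40748552 to 40755309), was the feedback gene that rose. It stood at 385 and 569 CPM in KO 1 and KO 2, against 158 and 181 CPM in WT 1 and WT 2, with a log2 fold change of 1.49 ± 0.22 (adjusted p = 0.0153). The lowest KO value was more than double the highest WT value. Ppm1d encodes the WIP1 phosphatase, which removes activating phosphates from p53, and averaged 36.7 ± 5.72 CPM in KO and 24.9 ± 0.268 in WT (SD, n = 2 each; log2 fold change 0.56, adjusted p = 0.0730). Mdm4 averaged 227 ± 50.4 CPM in KO and 206 ± 5.97 in WT, with overlapping groups (0.14, adjusted p = 0.622). Ppm1d was past the threshold in 4 of the 11 alternative settings and Mdm4 in 1.

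Among 6 genes listed under cell cycle arrest and cell cycle kinases 3 rose, and Cdkn1a was not among them. Gtse1, 1 of the 3, also restrains p53 and could equally be listed with the feedback genes. Cdkn1a encodes p21, the cyclin-dependent kinase inhibitor through which p53 arrests the cycle (chromosome 17, 29090979 to 29100722). Its level was 478 and 787 CPM in KO 1 and KO 2, against 536 and 581 CPM in WT 1 and WT 2. One KO library lay below both WT libraries and the other above them. The log2 fold change was 0.18 ± 0.25 (adjusted p = 0.667). It became -0.23 when KO 2 was left out and 0.49 when KO 1 was left out, so its direction rested on which KO mouse was kept. Btg2, an antiproliferative gene, averaged 82.2 ± 16.7 CPM in KO and 72.0 ± 3.33 in WT and also did not pass (0.19, adjusted p = 0.483). Plk2, a polo-like kinase gene, stood at 41.8 and 65.4 CPM in KO, against 35.8 and 33.7 CPM in WT (0.62, adjusted p = 0.129).

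The arrest gene with the largest change was Zmat3, which encodes an RNA-binding zinc finger protein and is a direct p53 target (chromosome 3, 32334792 to 32365665). Zmat3 stood at 134 and 195 CPM in KO, against 33.0 and 36.0 CPM in WT, a log2 fold change of 2.25 ± 0.21 (adjusted p = 0.00505). Each KO value was over 3 times each WT value. Plk3, another polo-like kinase gene that responds to stress (chromosome 4, 117128655 to 117133963), stood at 101 and 83.5 CPM in KO, against 34.5 and 31.2 CPM in WT (1.49 ± 0.15, adjusted p = 0.00602). Gtse1 encodes a microtubule-binding protein of the G2 phase that restrains p53 (chromosome 15, 85859691 to 85876573), and stood at 149 and 185 CPM in KO, against 85.5 and 90.9 CPM in WT (0.92 ± 0.15, adjusted p = 0.0189). Without WT 1 or WT 2 the adjusted p of Gtse1 was 0.0880 and 0.0570. Plk3 was one of 3 tested members that were lower in KO 2 than in KO 1, and Zmat3 and Gtse1 were higher in KO 2.

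The apoptosis genes held most of the rises, 10 of 13 tested, with 3 that did not pass and a median log2 fold change of 1.17 (9 of 12 and 1.15 without Eda2r). Their proteins act at the mitochondrion, at death receptors and in the caspase machinery. Bbc3, the gene of PUMA, a BH3-only protein that frees BAX from its inhibitors (chromosome 7, 16308398 to 16318334), stood at 32.9 and 50.4 CPM in KO, against 9.64 and 11.1 CPM in WT. Its log2 fold change was 2.01 ± 0.24 (adjusted p = 0.00989), and the lower KO value was about 3 times the higher WT value. Pmaip1, the gene of the BH3-only protein NOXA (chromosome 18, 66458604 to 66465558), stood at 20.1 and 35.2 CPM in KO, against 7.02 and 8.10 CPM in WT (1.87 ± 0.30, adjusted p = 0.0202). Bax, which encodes the protein that opens the outer mitochondrial membrane (chromosome 7, 45461695 to 45466903), stood at 157 and 163 CPM in KO, against 76.7 and 78.5 CPM in WT. The libraries of each genotype agreed closely for Bax, so its change of 1.05 had a standard error of only 0.11 (adjusted p = 0.00646).

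Death receptor genes differed. Tnfrsf10b, the mouse TRAIL receptor gene (chromosome 14, 69767472 to 69784411), stood at 51.1 and 70.6 CPM in KO, against 26.5 and 27.4 CPM in WT (1.17 ± 0.18, adjusted p = 0.0180). Fas, the receptor of Fas ligand and the classic death receptor of activated T cells (chromosome 19, 34290647 to 34327775), stood at 21.7 and 50.8 CPM in KO, against 21.9 and 24.99 CPM in WT. KO 1 was at the WT level and only KO 2 lay above it, and the log2 fold change of 0.63 ± 0.39 did not pass (adjusted p = 0.327). It was -0.12 without KO 2 and 1.11 without KO 1. Eda2r, the receptor of ectodysplasin A2 and a TNF receptor family member (chromosome X, 97333837 to 97377234), was near silent, with 16 and 42 counts in KO and 1 and 2 counts in WT. The ratio of its summed counts was 18.3, with a 95% exact interval of 5.96 to 91.4 that covers counting error only. Its WT counts alone would not have passed the minimum of 10, so its test is not given, and it is left out of the counts above where stated.

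Pidd1 encodes the scaffold of the PIDDosome, which activates caspase-2 (chromosome 7, 141438113 to 141447565), and stood at 74.5 and 102.0 CPM in KO, against 31.6 and 33.0 CPM in WT (1.45 ± 0.18, adjusted p = 0.0102). Apaf1, the core of the apoptosome (chromosome 10, 90989311 to 91082743), stood at 77.5 and 83.8 CPM in KO, against 57.3 and 58.0 CPM in WT. This was the smallest rise among the members called higher, 0.48 ± 0.11 (adjusted p = 0.0480). Apaf1 missed the threshold with WT 1 left out (change of 0.47) or WT 2 left out (0.49). With limma on log2(TPM + 1) it missed narrowly (adjusted p = 0.0507). Aen, an apoptosis-enhancing nuclease gene (chromosome 7, 78895927 to 78911209), stood at 78.5 and 90.5 CPM in KO, against 30.4 and 27.8 CPM in WT, and had the smallest adjusted p of the 30 genes (1.54 ± 0.13, adjusted p = 0.00461). Its groups were far apart and each was narrow.

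Phlda3, whose protein competes with the kinase AKT for membrane lipids (chromosome 1, 135766085 to 135769134), showed the largest change among members with more than a few counts. It stood at 34.5 and 74.8 CPM in KO, against 8.26 and 7.63 CPM in WT, with a log2 fold change of 2.78 ± 0.39 (adjusted p = 0.0140). KO 2 held 2.17 times the level of KO 1, and without KO 2 the change was 2.11. With WT 1 or WT 2 left out, Phlda3 missed the threshold (adjusted p = 0.0542 and 0.0672). Ei24, a gene of an endoplasmic reticulum membrane protein (chromosome 9, 36779153 to 36797334), stood at 103 and 162 CPM in KO, against 58.4 and 62.8 CPM in WT (1.13 ± 0.23, adjusted p = 0.0333, and 0.0687 without WT 1).

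The other 2 apoptosis genes did not pass. Trp53inp1, a nuclear protein gene of the stress response (chromosome 4), stood at 135 and 261 CPM in KO, against 123 and 132 CPM in WT (0.64 ± 0.31, adjusted p = 0.221). Perp, a tetraspan membrane protein gene (chromosome 10), stood at 7.79 and 41.8 CPM in KO, against 11.0 and 12.02 CPM in WT. KO 1 lay below both WT libraries and KO 2 at 5.36 times KO 1, the widest gap between the KO mice among the members. The log2 fold change of 1.11 ± 0.72 (adjusted p = 0.346) turned to -0.57 without KO 2 (adjusted p = 0.0203).

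**Figure D2:**
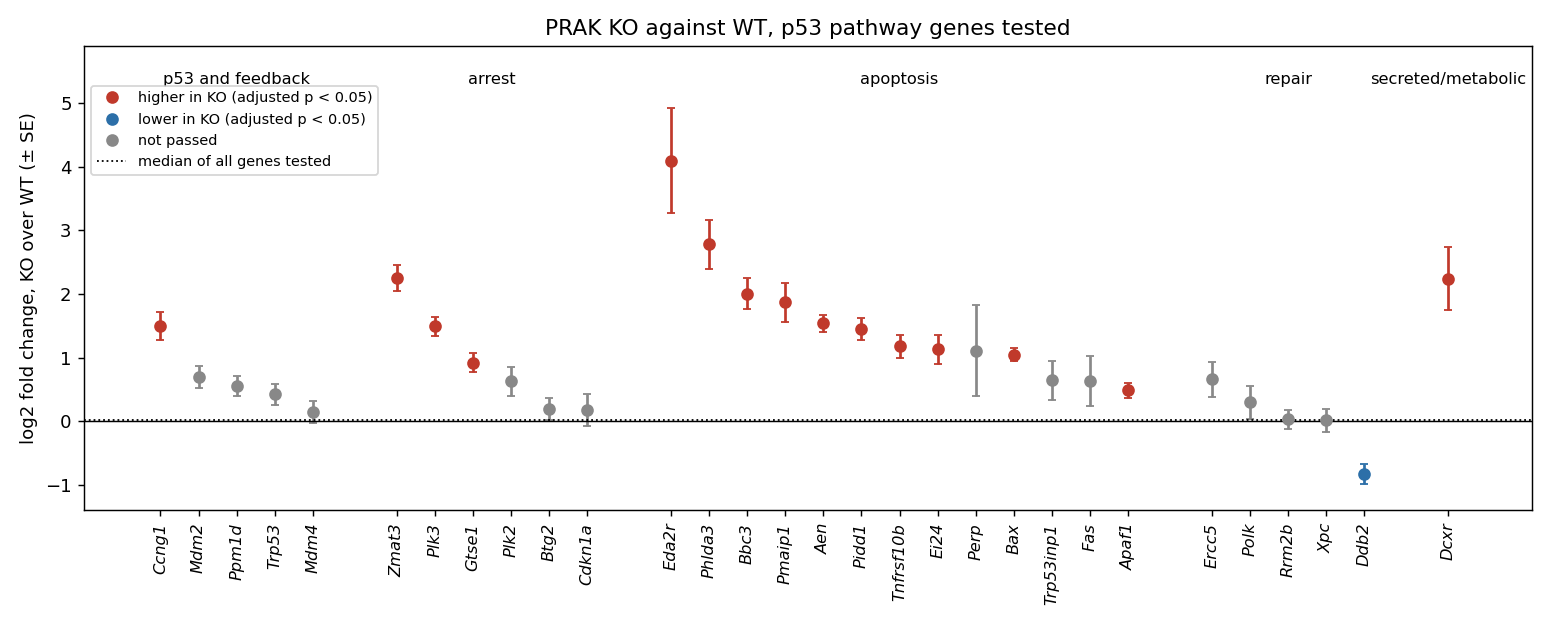
log2 fold change of PRAK KO over WT (± SE, edgeR, 2 libraries per genotype) for the 30 members tested, by role, with red for those higher at an adjusted p under 0.05, blue for the one lower and grey for the rest. Apoptosis genes hold 10 of the 15 red points and the 5 repair genes hold none, where 5.14% of all genes tested were higher. The dotted line marks the median of all genes tested, 0.02. Eda2r, which entered the test only through its KO counts, is among the red points.

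Among 5 DNA repair genes 0 were higher and 1 was lower in edgeR, against 5.14% and 8.23% of all genes tested. With so few genes a count of 0 does not set this role apart from genes in general. At an unadjusted p under 0.05 edgeR gave 0 higher and 1 lower, and DESeq2 and limma each gave 1 higher and 1 lower, with 0 higher after adjustment. The number of higher repair genes was 1 with the mouse numbers as a block, in a fit where 10.6% of all genes were higher. It was larger still without KO 1, where more of all genes were higher too. Ddb2 encodes the damage sensor of nucleotide excision repair (chromosome 2, 91211545 to 91237132), and p53 has been reported to activate it in human but not in mouse cells. It stood at 19.1 and 22.1 CPM in KO, against 33.9 and 39.4 CPM in WT, and fell with a log2 fold change of -0.83 ± 0.15 (adjusted p = 0.0277). The call was lost without WT 1 (adjusted p = 0.0727) or WT 2 (0.225), while the 2 groups did not overlap. Xpc, the gene of the other sensor of that pathway, averaged 20.95 ± 3.90 CPM in KO and 20.8 ± 0.432 in WT (0.01, adjusted p = 0.977). Ercc5, which encodes the XPG endonuclease, averaged 46.0 ± 17.6 CPM in KO and 29.2 ± 2.96 in WT (0.66, adjusted p = 0.170), and it passed without KO 1 (1.00, adjusted p = 6.64e-05) and with the block (0.61, adjusted p = 0.0275). Polk, a translesion polymerase gene, averaged 63.8 ± 23.2 and 52.1 ± 3.24 CPM in KO and WT (0.29, adjusted p = 0.477). Rrm2b, the p53-regulated subunit of ribonucleotide reductase, averaged 18.7 ± 0.759 CPM in KO and 18.3 ± 1.28 in WT (0.03, adjusted p = 0.924).

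The last 2 members encode a secreted factor and a metabolic enzyme. Dcxr, the gene of dicarbonyl and L-xylulose reductase (chromosome 11, 120724546 to 120727284), stood at 13.1 and 36.9 CPM in KO, against 5.18 and 5.38 CPM in WT (2.24 ± 0.50, adjusted p = 0.0432). KO 2 held 2.82 times the level of KO 1, the change was 1.31 without KO 2, and Dcxr missed the threshold with WT 1 left out (adjusted p = 0.287) or WT 2 left out (0.327). Gdf15, a stress-induced cytokine gene of the TGF-beta family, had 4 and 9 counts in KO and 0 and 1 in WT, too few to enter the test.

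Between genes, the authors' TPM values, which are scaled to gene length, gave the order of abundance. Cdkn1a was the most abundant member in both genotypes, at 641 ± 192 TPM in KO and 532 ± 18.5 in WT (SD, n = 2 each). Bax came next in KO cells at 367 ± 8.85 TPM, against 165 ± 1.83 TPM in WT, and Trp53 stood at 320 ± 75.0 TPM in KO and 222 ± 4.2 in WT. In KO cells Bax and Trp53 are neighbours whose values meet, at 361 and 373 TPM for Bax and 267 and 373 TPM for Trp53, so their order was not resolved. Ccng1 followed by its mean, at 264 ± 60.1 TPM in KO and 88.0 ± 6.75 in WT. It lay below Trp53 in KO 1 (222 against 373 TPM) and above it in KO 2 (307 against 267 TPM). The order of Trp53 and Ccng1 in KO cells was therefore not resolved either. By library, Phlda3 stood at ranks 12 and 8 of 31 in KO 1 and KO 2, against ranks 23 and 26 in WT 1 and WT 2. Ddb2 stood at ranks 24 and 27 in KO, against rank 11 in both WT libraries. The KO values of Phlda3 spanned those of its neighbours Plk3, Aen, Trp53inp1 and Mdm4, so the order among these was not resolved.

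Of 24 further p53 targets 7 were higher in KO and 1 was lower, against 5.14% and 8.23% of all genes tested. Dram1, 1 of the 7, entered the test only through its KO counts (27 and 57, against 4 and 8 in WT). With at least 50 counts in 2 libraries, where Dram1 was not tested, 6 of 23 were higher, against 5.56% of all genes. The median log2 fold change of the 24 was 0.26. Sesn2, whose sestrin protein restrains mTORC1 and which ATF4 also induces, stood at 116 and 85.2 CPM in KO, against 29.4 and 28.3 CPM in WT (1.80, adjusted p = 0.00604). The rise was also seen for the ribosomal protein gene Rps27l (1.11, adjusted p = 0.0120), the thiamine transporter gene Slc19a2 (1.38, adjusted p = 0.0176), Susd6 (0.84, adjusted p = 0.0166) and Ninj1, which encodes a protein of membrane rupture in dying cells (0.72, adjusted p = 0.0311). Ddit4, an mTORC1 inhibitor gene that hypoxia also induces, stood at 178 and 207 CPM in KO, against 423 and 412 CPM in WT (-1.12, adjusted p = 0.00948). Fewer genes of this list were higher without WT 1 or WT 2, and more without KO 1 or KO 2, as was so over all genes. The calls lost without a WT library included Susd6 and Ninj1.

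Of 16 tested genes of upstream kinases and other regulators, coactivators and the p53 family, 1 was higher and 2 were lower. Of all genes tested 5.14% were higher and 8.23% were lower. The list includes Mapkapk5 itself, whose fall goes with the design of the KO mice, so it adds nothing to this comparison. The median log2 fold change of the 16 was -0.08. Atr, the kinase gene of the replication stress checkpoint, stood at 39.9 and 46.8 CPM in KO, against 78.8 and 83.6 CPM in WT (-0.90, adjusted p = 0.0151, and 0.0608 without WT 2). Mapkapk5 was the other lower gene, and the coactivator gene Crebbp was higher (0.56, adjusted p = 0.0326, with 0.338 without WT 1 and 0.328 without WT 2). The checkpoint kinase genes Atm (0.39, adjusted p = 0.0920), Chek1 (0.26, adjusted p = 0.327) and Chek2 (-0.35, adjusted p = 0.164) did not pass. Cdkn2a, the locus of the MDM2 inhibitor ARF, lay at or under 0.194 CPM in each library and was not tested. In these counts the activity of the kinases is not measured, only the mRNA.

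Cell cycle genes that p53 lowers through p21 and the DREAM repressor complex were lower in KO for 3 of 15 and higher for 0 (edgeR; 1 higher at an unadjusted p under 0.05, 0 higher with DESeq2, and 3 higher without KO 2, where 22.2% of all genes were higher). With no library left out, 8.23% of all genes tested were lower and 5.14% were higher. The median log2 fold change of the 15 was -0.20. The 3 lower genes were Bub1, a spindle checkpoint kinase gene (-0.77, adjusted p = 0.0235), the B cyclin gene Ccnb2 (-0.68, adjusted p = 0.0333) and the phosphatase gene Cdc25c (-0.77, adjusted p = 0.0384). Ccnb1, the main mitotic cyclin gene, stood at 129.96 and 86.4 CPM in KO, against 124 and 118 CPM in WT (-0.16, adjusted p = 0.626). None of the 3 calls held without WT 1, without WT 2 or with limma on log2(TPM + 1), where 0 genes of the list were lower. Without KO 1, 13 of the 15 were lower, in a fit where 18.7% of all genes were lower.

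**Figure D3:**
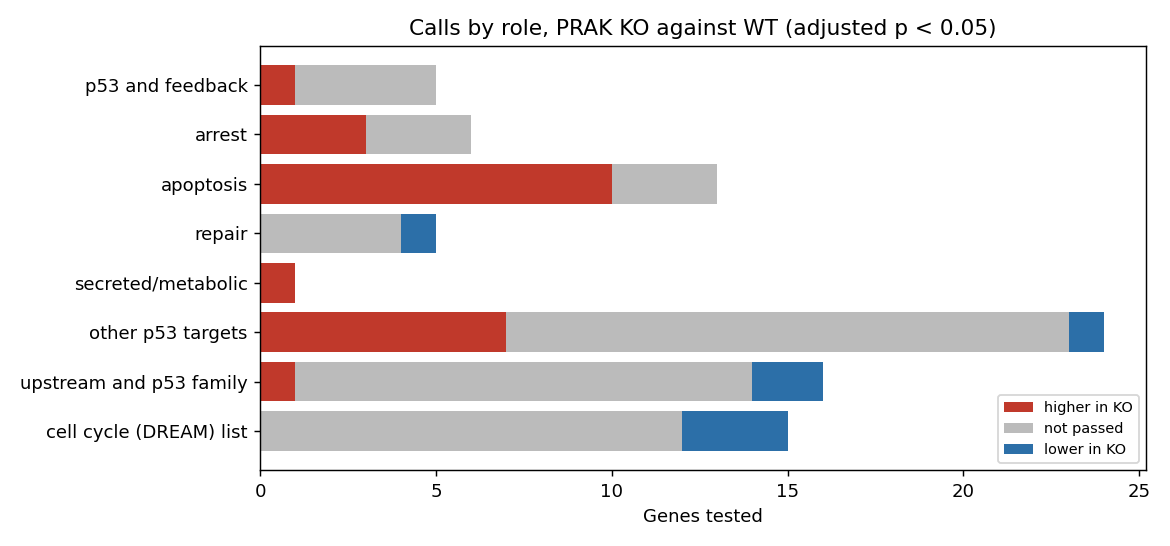
Number of genes tested in each role of the p53 pathway and in 3 further lists that were higher in PRAK KO (red), lower (blue) or past neither side of the threshold (grey), edgeR adjusted p under 0.05. Apoptosis shows 10 red of 13, the other p53 targets 7 of 24, and the cell cycle list 3 blue of 15. Eda2r and Dram1 entered the test only through their KO counts, and are among the red genes of apoptosis and of the other p53 targets. Over all genes tested 5.14% were higher and 8.23% were lower.

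The 2 KO mice did not give the same p53 pathway levels. KO 2 stood above KO 1 for 27 of the 30 genes tested (50.2% of all genes tested), with a median log2 ratio of 0.51, and the exceptions were Trp53, Plk3 and Rrm2b. Between WT 2 and WT 1 the median log2 ratio of the same genes was 0.07. All of them but Btg2, Plk2, Plk3, Aen and Phlda3 were higher in WT 2 than in WT 1. The direction was thus mostly shared by the 2 genotypes, and the size differed. In the cell cycle list KO 2 lay below KO 1 for all 15 genes, with a median log2 ratio of -0.40, against -0.07 between the WT mice. WT 2 lay below WT 1 for all of these genes but Birc5, Foxm1, E2f1 and Kif23. Trp53 mRNA was lower in KO 2, the KO library in which 27 of the 30 genes were higher. KO 2 was also the library with the higher sum of myeloid markers (318 CPM, against 164 in KO 1). Its sum of CD8 T and NK cell markers was the lower (321 CPM, against 395 in KO 1). Of 8 markers of T and Th17 cells 3 were higher in KO 2 than in KO 1. These were Cd3e (165 and 226 CPM in KO 1 and KO 2), Cd3g (185 and 311 CPM) and Cd4 (516 and 939.5 CPM). The sum of the 8 was 3776 and 2607 CPM in KO 1 and KO 2, against 4234 and 4091 CPM in WT 1 and WT 2. Il17a stood at 643 and 237 CPM in KO 1 and KO 2, against 474 and 418 CPM in WT 1 and WT 2. Il17f stood at 1994 and 637 CPM in KO 1 and KO 2, against 2224 and 1987 CPM in WT 1 and WT 2. With 1 library per mouse these differences between mice have no test.

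**Figure D4:**
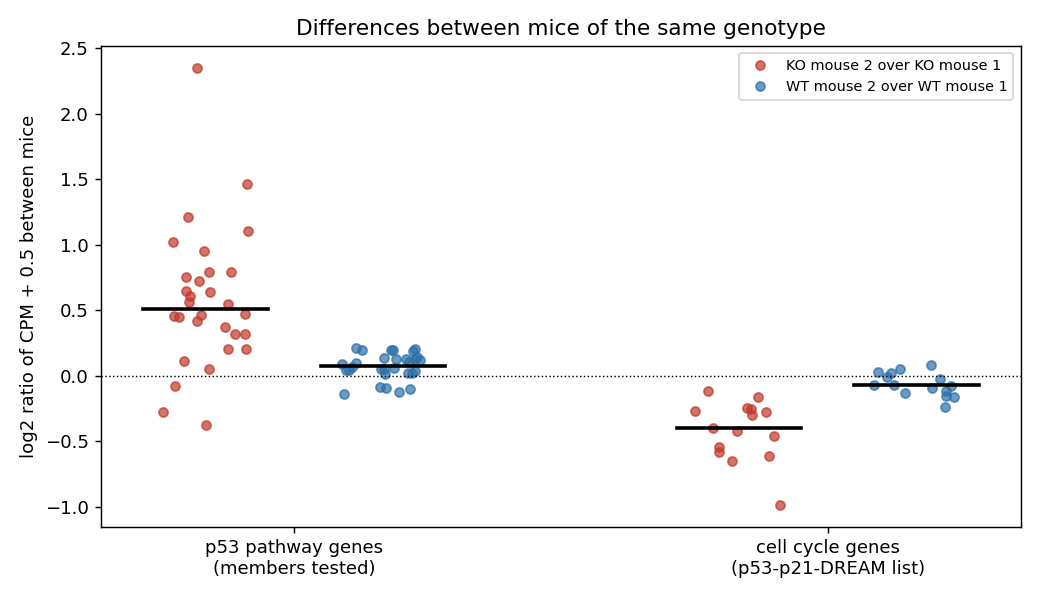
log2 ratio of CPM + 0.5 between the 2 PRAK KO mice (red, KO 2 over KO 1) and between the 2 WT mice (blue, WT 2 over WT 1) for each p53 pathway gene tested and each gene of the cell cycle list, with bars at the medians. The p53 genes have medians of 0.51 and 0.07, and the cell cycle genes -0.40 and -0.07.

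Without strand in the sources used here, reads of overlapping genes cannot be told apart. 9 of the 31 members overlap another RefSeq gene, among them 6 of the 16 called, and 10 of the 15 higher members overlap none. Of the overlapping partners 3 were in the table, and 0 of them passed in edgeR (1 was lower at an unadjusted p under 0.05 and with DESeq2, Ikbip). Acp2, which overlaps Ddb2, averaged 29.9 ± 1.60 CPM in KO and 26.2 ± 1.73 in WT. Ikbip, which overlaps Apaf1, averaged 5.004 ± 2.70 CPM in KO and 11.5 ± 1.33 in WT. Tctex1d4, which overlaps Plk3, lay at or under 0.895 CPM in every library.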

How the data were processed

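The authors deposited 1 table with the expected count, FPKM and TPM of each gene in 4 libraries. The deposited expected counts are estimated reads per gene, not normalised, and 69.4% of them are whole numbers. The authors' FPKM values (per kilobase and library size, per the file headers) were not used. The deposited TPM values sum to the same total in every library. Per the submitters' processing notes the build was GRCm38.p6 and the tools, listed without roles, were RSEM 1.2.12, Bowtie2 2.2.5 and HISAT2 2.0.4. For strand, library kit and annotation the sources used here give nothing.

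Counts were rounded and filtered with filterByExpr (at least 10 counts, and 15 in total). This kept 12680 genes and dropped 5241. Libraries were scaled by TMM and fitted in edgeR 4.0.16 (R 4.3.3) with the robust quasi-likelihood test, genotype as the only term, and Benjamini-Hochberg adjustment over all genes tested, which gives every adjusted p. Standard errors are the log2 fold change over the root of F. The residual degrees of freedom were 2, with a prior of 3.58. Alternatives used RLE size factors, library size alone, no filter, at least 50 counts in 2 libraries, DESeq2 1.42.0, limma 3.58.1 on log2(TPM + 1), each library left out and a replicate block. The steps were tested on simulated data. The p53 half-site was searched in RefSeq promoter windows. Interval bounds for low counts used the exact binomial method in SciPy 1.17.1.

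The members, lists and roles were chosen with earlier results of these data known. Each member is named. From the other lists, genes fixed by name and up to 6 that passed with the smallest p are named. Further genes are named as exceptions to a count or for their entry into the test.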

Additional observations from a re-analysis of the deposited data

How the results depend on the processing

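Of the 15 members higher in KO cells, 9 passed under all 11 alternatives (Ccng1, Plk3, Zmat3, Bax, Bbc3, Pmaip1, Tnfrsf10b, Pidd1 and Aen), and the other called members, Ddb2 among them, missed the threshold without a WT library. With limma on log2(TPM + 1) 14 members were higher, since Apaf1 narrowly missed the threshold, and with at least 50 counts in 2 libraries 14 of 29, since Eda2r was not tested. Leaving out 1 library each gave 9 to 26 higher and 0 to 2 lower members, and 209 to 2881 higher and 450 to 3118 lower genes over the whole table. With 1 library left in a genotype, that library is assumed to vary like those of the other. DESeq2 gave 993 higher genes over the whole table. The direction of Perp turned without KO 2, to -0.57, against 1.86 without KO 1. The median log2 fold change of the members lay between 0.51 and 1.07 over the leave-one-out fits. The mouse numbers are shared by KO and WT, but no label says that a number marks a shared litter or day, and the deviations of same-numbered libraries had a correlation of 0.17 across genes. With these numbers as a replicate block the fit gave 1338 higher and 1597 lower genes, and 18 higher and 1 lower members. The number of mice and, for Eda2r and Gdf15, the counts limit the precision. The causes of these differences were not tested.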
